A study of Mus musculus with 6 samples.

Results

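Neurotrophic factors are secreted proteins that keep neurons alive and shape their connections, and 9 genes for such factors and their receptors were examined in mouse retina after elevation of intraocular pressure (IOP). The 9 were taken by gene name from the 31169 genes of the count table: the ligands *Bdnf*, *Ntf3*, *Cntf* and *Gdnf*, and the receptors *Ntrk2*, *Ntrk3*, *Ngfr*, *Cntfr* and *Gfra1*. Whole retina of C57BL/6 mice was sequenced as poly(A) RNA in 3 saline and 3 microbead libraries. Each mouse received an injection of 1 μl into the anterior chamber at the age of 1 month and was 2 months old when the retina was taken, after 4 weeks. In the microbead group the fluid carried polystyrene beads of 15 μm, which block the drainage of aqueous humor and thereby elevate IOP, and in the control group it was saline alone. The volume and the number of libraries are those of the labels; the study's text gives a larger volume and more retinas per group. No transgene, deletion or other agent is given for either group, and the study used male mice and injected both eyes. Neither the labels nor the methods say whether the libraries of a group came from different mice, so p-values measure the spread between these libraries. The comparison asks how the transcripts of the factors and their receptors differed with elevated IOP.

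BDNF and neurotrophin-3 each signal through a receptor tyrosine kinase, TrkB (*Ntrk2*) and TrkC (*Ntrk3*), while p75NTR (*Ngfr*) binds all neurotrophins and their precursor forms. CNTF binds a subunit of its own, CNTFRα (*Cntfr*), which then joins the shared cytokine receptors gp130 and LIFR. GDNF binds GFRα1 (*Gfra1*), which has no kinase and signals with the receptor tyrosine kinase RET. In retina, BDNF and CNTF are known as survival factors for retinal ganglion cells (RGCs), the neurons lost in glaucoma, and glial cells are a known source and target of several of these factors.

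A gene-level count adds up all transcripts of a gene, and for both Trk receptors these include forms with and without the kinase. In the GENCODE vM21 annotation of GRCm38, *Ntrk2* has 10 transcripts, 7 of them coding, and *Ntrk3* has 20, of which 6 are coding. The sequences below are shown because a count of either gene cannot tell these forms apart. Lower case marks the last 24 coding bases that both forms share, and capitals mark the 37 bases that follow the split. The full-length *Ntrk2* reading frame (Ntrk2-201, 2466 bases, 821 amino acids) goes on at chr13:58985803-58985839, forward strand. The truncated form (Ntrk2-202, 1431 bases, 476 amino acids) shares 1394 bases and ends with its own 37 bases, stop codon included, at chr13:58932024-58932060. For *Ntrk3*, the longest frame (Ntrk3-206, 2595 bases, 864 amino acids) goes on at chr7:78260378-78260414, reverse strand. The shorter frame (Ntrk3-202, 1839 bases, 612 amino acids) shares 1585 bases and goes on with 254 bases of its own, of which the first are at chr7:78304390-78304426.
Ntrk2-201, full length: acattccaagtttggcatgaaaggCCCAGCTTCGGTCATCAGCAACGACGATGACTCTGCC
Ntrk2-202, truncated: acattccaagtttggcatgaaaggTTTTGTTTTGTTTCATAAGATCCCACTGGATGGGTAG
Ntrk3-206, longest: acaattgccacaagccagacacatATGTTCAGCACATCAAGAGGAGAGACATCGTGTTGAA
Ntrk3-202, shorter: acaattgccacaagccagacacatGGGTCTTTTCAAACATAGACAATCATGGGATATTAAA

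The saline libraries held 36085737 to 46481382 counts and the microbead libraries 13574949 to 19834366, so that 3 counts, the limit that a count of 0 allows, came to between 0.0622 and 0.217 counts per 1000000 (CPM, on library sizes scaled by edgeR's TMM method). Of all genes, 17707 passed edgeR's filter on low counts and were tested, and 2261 had an adjusted p under 0.05. All saline libraries carry names of one series and all microbead libraries names of another, and these name series cannot be told apart from the treatment. The share of counts on the mitochondrial genome was 3.19 to 3.57% in the saline and 8.90 to 10.65% in the microbead libraries. The tissue was retina by its markers: 8 rod genes summed to 54020 to 80900 CPM, and no marker of any retinal cell type listed was at 0 throughout. A pair of saline libraries stood apart. In saline replicate 1, 12 RGC marker genes summed to 459.5 CPM, while saline replicates 2 and 3 held 1190 and 1508 CPM. Other lists were lowest there among the saline libraries too, such as amacrine (834.9 against 1258 and 1387 CPM) and bipolar (1194 against 1384 and 1549 CPM). The same held for the horizontal, Müller glia, endothelial, pericyte and pigment epithelium lists, but not for the rod and cone lists. In the same library 6 astrocyte and gliosis genes summed to 361.0 CPM, while those replicates held 47.76 and 67.28 CPM. Most of the 361.0 CPM was *Serpina3n* (239.9 CPM) and *Lcn2* (62.92 CPM). Of the other genes in that list, *Gfap* and *Timp1* were also highest there among the saline libraries. *S100b* and *Pax2* were instead lowest there of all libraries. In saline replicate 3, the immediate early gene *Fos* was at 1179 CPM, against 26.24 and 12.42 CPM.

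Of the 9 genes, 7 passed the filter on low counts, and 1 of these, *Ngfr*, had an adjusted p under 0.05, as did 12.8% of all tested genes. It was lower after microbead injection, as were 6.31% of all tested genes, while 6.46% were higher. The median log2 fold change (microbead against saline) of the 7 was -0.14, against -0.03 over all tested genes. Of the 7, 5 were negative, as were 9221 of the 17707 tested genes. With *Gdnf* set aside, the libraries of the groups did not overlap for 3 of the tested members, *Ngfr*, *Gfra1* and *Bdnf*, each lower after microbead injection. Among all tested genes 37.8% were free of overlap (18.8% higher and 18.9% lower). *Gdnf*, higher without overlap, is not counted here, because it passed the filter only through its microbead libraries. The filter thus fixed its lack of overlap and its positive sign in advance, and the median and sign count above include it. The log2 fold changes of the other tested members were -0.90 (*Ngfr*), -0.88 (*Gfra1*), -0.55 (*Bdnf*), -0.14 (*Ntrk2*), -0.05 (*Ntrk3*) and 0.14 (*Cntfr*). The receptors and *Bdnf* were above 5 CPM in every library, while *Gdnf* and the untested *Ntf3* and *Cntf* were close to or under 1 CPM.

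**Figure D1:**
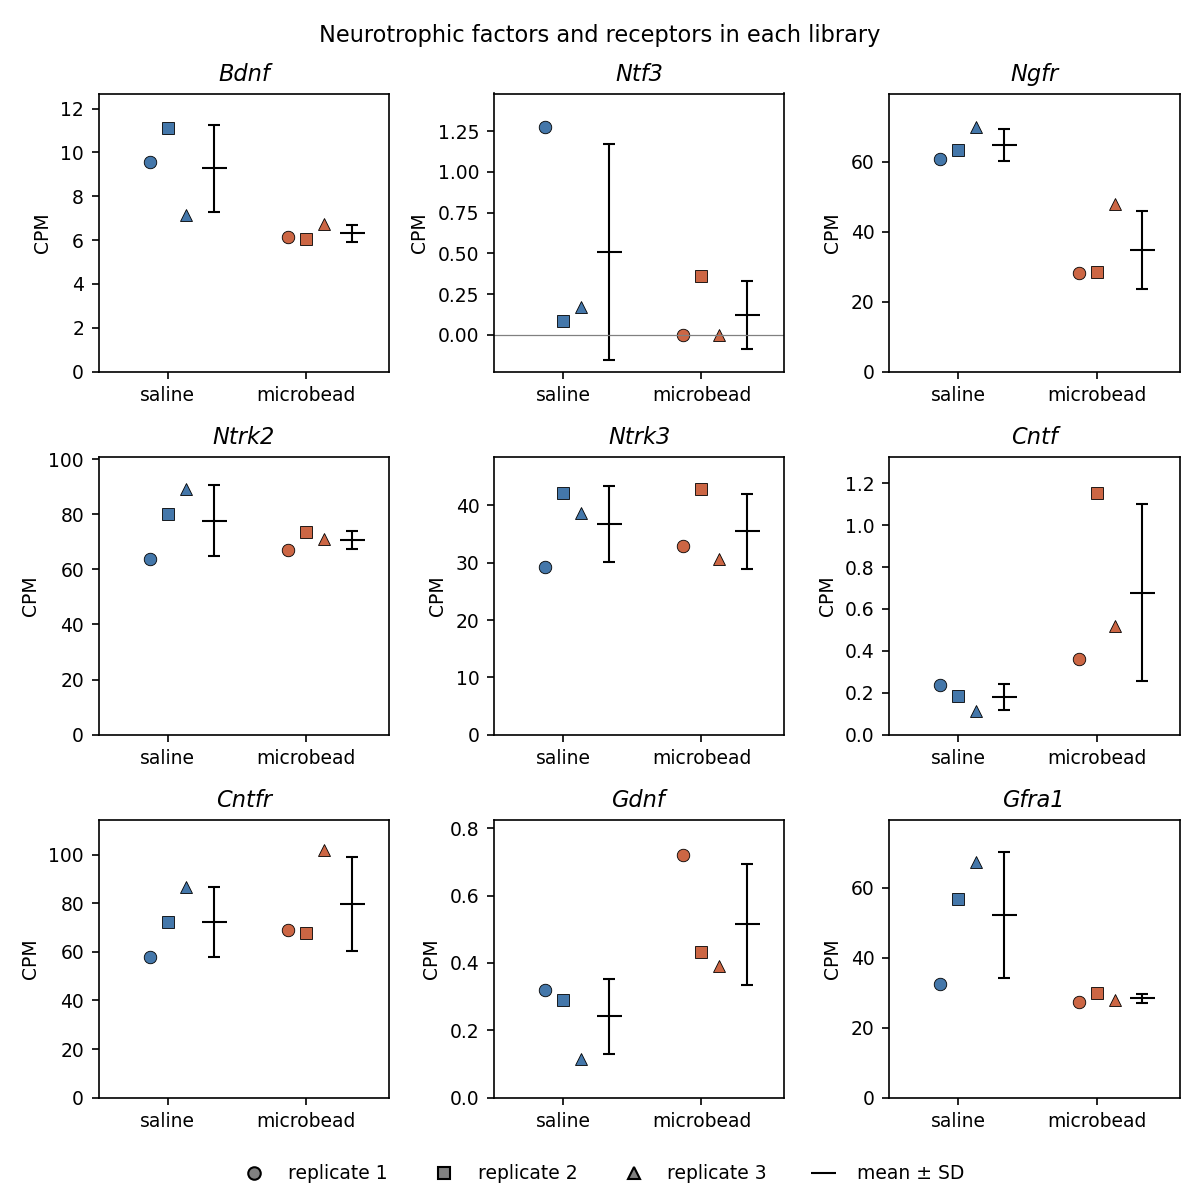
Expression of the 9 genes in counts per 1000000 (CPM, vertical axis, a scale of its own for each gene) in the 3 saline (blue) and 3 microbead (orange) libraries. Symbols mark the replicates and black bars the mean ± SD. *Ngfr* runs from 60.88 to 69.99 CPM in saline and from 28.31 to 47.81 CPM in microbead libraries, *Gfra1* falls into a narrow band of 27.23 to 29.89 CPM after microbead injection, and *Ntrk2* and *Ntrk3* overlap between the groups.

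Per kilobase of exonic sequence, which allows levels of different genes to be compared, *Cntfr* was highest, with a mean over the 6 libraries of 27.3 CPM per kb. *Ngfr* (14.5), *Gfra1* (7.36) and *Ntrk2* (3.84 CPM per kb) followed, and each of these receptors lay apart from its neighbour in this order in both groups. *Bdnf* (1.25 CPM per kb) and *Ntrk3* (1.20) overlapped in both groups and had no order beyond their spread. The remaining ligands came last, *Cntf* at 0.40, *Ntf3* at 0.184 and *Gdnf* at 0.103 CPM per kb. Among these, *Cntf* and *Ntf3* overlapped in the saline libraries only, *Ntf3* and *Gdnf* overlapped in both groups, and *Cntf* overlapped with *Ntrk3* in the microbead libraries. The exonic length counts every annotated exon, which is 30.17 kb for *Ntrk3* and 19.292 kb for *Ntrk2* against 2.782 kb for *Cntfr*, so long exons of few transcripts lower the values of both Trk genes. For *Cntf*, only 226 of 1073 exonic bases lie outside exons of another gene, *Zfp91*. How reads in the shared bases were counted is not given, so the place of *Cntf* in this order is uncertain.

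*Bdnf*, the ligand of TrkB, is at chr2:109674700-109727007 on the forward strand of GRCm38, the build of all positions given, and its 11 annotated transcripts are all coding. It was measured at 9.562, 11.1 and 7.133 CPM in saline libraries and at 6.124, 6.066 and 6.756 CPM in microbead libraries. All microbead libraries were below the lowest saline library, replicate 3, by a small gap. Means were 9.26 ± 2.00 and 6.32 ± 0.38 CPM (SD, n = 3 each). The log2 fold change was -0.55 (SE, the standard error, 0.26; 95% interval -1.13 to 0.02), and it did not pass the test (edgeR's quasi-likelihood test, adjusted p = 0.175). With single libraries left out it lay between -0.71 and -0.41, and it was -0.53 without saline replicate 1 and -0.71 without saline replicate 3. The antisense gene *Gm45346* covers 14.4% of the exonic bases of *Bdnf* on the other strand, but held at most 3 counts in any library.

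*Ntf3*, which encodes neurotrophin-3, the ligand of TrkC, is at chr6:126101412-126166910 on the reverse strand. Its counts were 48, 4 and 6 after saline and 0, 5 and 0 after microbead injection. Most of its saline counts thus came from saline replicate 1, the library with few RGC transcripts and much *Serpina3n* and *Lcn2*. Fitted without the filter on low counts, the log2 fold change was -2.19 (SE 1.06, edgeR adjusted p = 0.191). It came to -0.18 without saline replicate 1 (adjusted p = 0.957) and to -6.99 without microbead replicate 2 (adjusted p = 0.0278), where the remaining microbead libraries held 0 counts and the fitted value is no measure of size. At this depth a difference in *Ntf3* was not detectable apart from single libraries.

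*Ntrk2*, the gene of TrkB, is at chr13:58806569-59133970 on the forward strand. Its levels were 63.75, 79.97 and 89.05 CPM in saline and 67.06, 73.65 and 71.13 CPM in microbead libraries. All microbead values lay within the saline range. The log2 fold change of -0.14 (SE 0.18, 95% interval -0.53 to 0.26) did not pass the test (edgeR adjusted p = 0.636). It was -0.26 without saline replicate 1 and turned to 0.05 with an offset for GC content and exonic length. Any shift between full-length and truncated TrkB was not measured, since both forms enter the same count.

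*Ntrk3*, the gene of TrkC, is at chr7:78175959-78738012 on the reverse strand. It was at 29.32, 42.2 and 38.72 CPM in saline and at 32.94, 42.96 and 30.6 CPM in microbead libraries. The groups covered nearly the same range, with a log2 fold change of -0.05 (95% interval -0.52 to 0.42, edgeR adjusted p = 0.893) whose sign changed without saline replicate 2 (0.06) or microbead replicate 3 (0.04). The log2 ratio of *Ntrk2* to *Ntrk3* within a library was 1.12, 0.92 and 1.20 in saline and 1.03, 0.78 and 1.22 in microbead libraries. Its means of 1.08 ± 0.14 and 1.01 ± 0.22 (SD, n = 3 each) differed by less than the spread between libraries (two-sided exact permutation test, p = 0.7).

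*Ngfr*, the gene of p75NTR, is at chr11:95568818-95587735 on the reverse strand and has 1 annotated transcript. Its expression was 60.88, 63.52 and 69.99 CPM in saline libraries and 28.31, 28.38 and 47.81 CPM in microbead libraries. Every microbead library was below every saline library, and microbead replicate 3 lay between the other microbead libraries and the saline group. The means were 64.8 ± 4.69 and 34.8 ± 11.2 CPM (SD, n = 3 each), and the level was 1.86-fold lower after microbead injection. In edgeR's test the log2 fold change was -0.90 (SE 0.23, 95% interval -1.41 to -0.38, adjusted p = 0.0359). It passed at 0.05 in all 10 alternatives with 6 libraries (adjusted p from 0.00141 to 0.0477), and in 1 of the 6 fits that left out a library. In those 6 fits the log2 fold change stayed between -1.20 and -0.75 and the adjusted p between 0.0351 (without saline replicate 1) and 0.115 (without microbead replicate 2), and without saline replicate 3 the values were -0.84 and 0.0652.

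**Figure D2:**
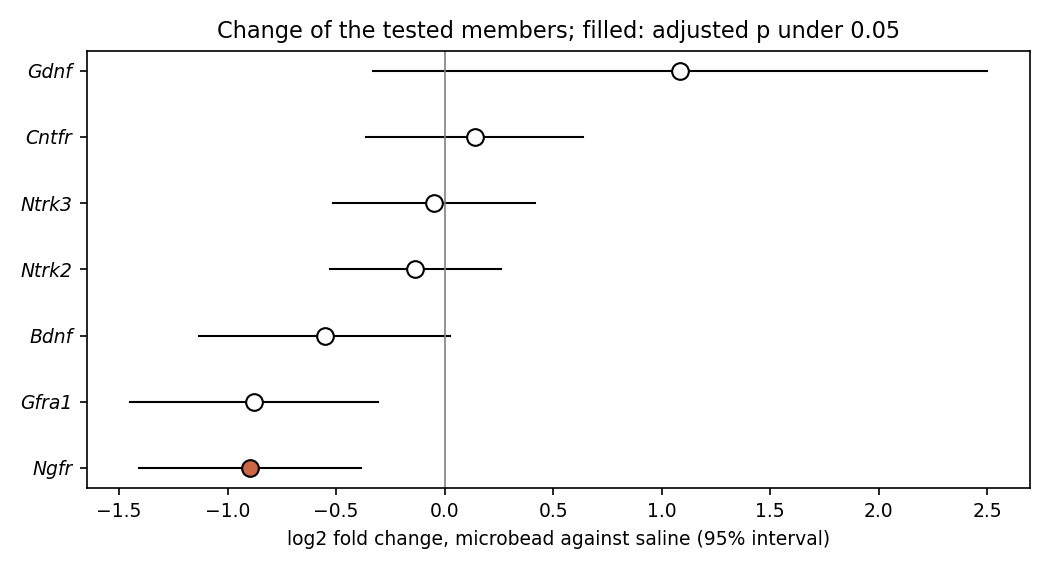
Log2 fold change (microbead against saline, horizontal axis) of the 7 tested genes with its 95% interval from edgeR's quasi-likelihood fit; a filled point marks an adjusted p under 0.05. *Ngfr* (-0.90) is the filled point, the interval of *Gfra1* (-1.45 to -0.31) also lies below 0, and that of *Gdnf* (-0.33 to 2.5) is the widest.

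In retina p75NTR is known from Müller glia, the radial glial cells that span the tissue, and is also a marker of Schwann cells outside it. The 10 Müller glia marker genes summed to 5588, 6217 and 9347 CPM in saline and to 5662, 5474 and 4654 CPM in microbead libraries (two-sided exact permutation test, p = 0.2; Benjamini-Hochberg over 14 lists, 0.56). Of these 10 markers, 4 were lower and 0 higher past edgeR's threshold, and the list median was -0.40 on the log2 scale. Over all tested genes 6.31% were lower and 6.46% higher past the threshold. The 4 were *Sox9* (log2 fold change -1.46), *Crym* (-1.41), *Dkk3* (-1.03) and *Vim* (-0.79). The marker sum was highest in replicate 3 among the saline libraries, where *Ngfr* was highest as well, and lowest in replicate 3 among the microbead libraries, where *Ngfr* was highest. The 6 Schwann cell and fibroblast genes summed to 18.33 to 27.87 CPM in saline and 15.34 to 19.94 CPM in microbead libraries, and none of the genes of either list was at 0 in all libraries. The part of either cell type in the *Ngfr* result was not tested. In whole retina, fewer cells of a type and less RNA per cell cannot be told apart.

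*Cntf*, the gene of ciliary neurotrophic factor, is at chr19:12763660-12765632 on the reverse strand. It had 9, 9 and 4 counts in saline and 7, 16 and 8 counts in microbead libraries, or 0.239, 0.187 and 0.114 against 0.360, 1.155 and 0.520 CPM. In CPM the groups did not overlap, with the microbead libraries higher. The raw counts did overlap, so the groups came apart only after scaling to the smaller depth of the microbead libraries. The summed counts gave 0.182 CPM in saline (95% Poisson interval 0.114 to 0.275) and 0.637 CPM in microbead libraries (0.433 to 0.904), intervals that cover counting error only. Without the filter on low counts the log2 fold change was 1.82 (SE 0.86, edgeR adjusted p = 0.176), between 1.24 and 2.14 with single libraries left out.

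These few counts are uncertain in origin, because the annotation places most exonic bases and every coding base of *Cntf* within exons of another gene. Exons of the zinc finger gene *Zfp91*, on the same strand, cover 78.9% of the exonic bases of *Cntf*. Outside them lie 226 of its 1073 exonic bases and 0 of its 594 coding bases, stop codon not counted. How reads in shared bases were assigned is not given in the sources used here. *Zfp91* was at 166.4, 170.2 and 192.8 CPM in saline and 92.74, 133.1 and 103.0 CPM in microbead libraries. Its log2 fold change of -0.69 (edgeR adjusted p = 0.0418) was opposite in sign to that of *Cntf*.

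*Cntfr*, the ligand-binding subunit of the CNTF receptor, is at chr4:41657498-41697089 on the reverse strand. Levels were 57.93, 72.36 and 86.65 CPM in saline and 69.17, 67.66 and 101.9 CPM in microbead libraries. The groups overlapped, and the log2 fold change of 0.14 (95% interval -0.36 to 0.64, edgeR adjusted p = 0.71) was -0.001 without saline replicate 1 and -0.09 without microbead replicate 3. gp130 (*Il6st*), the shared subunit that transmits the signal, was at 196.0, 162.7 and 164.1 CPM in saline and at 71.69, 127.7 and 90.69 CPM in microbead libraries. It was lower by 44.5% (log2 fold change -0.85, SE 0.23, edgeR adjusted p = 0.0396), with an adjusted p between 0.0431 and 0.146 when single libraries were left out, past the threshold in 1 of 6 fits. The replicate number as a block gave 0.0707.

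Within libraries, the log2 ratio of *Cntfr* to *Il6st* was -1.76, -1.17 and -0.92 in saline and -0.05, -0.92 and 0.17 in microbead libraries. Means of -1.28 ± 0.43 and -0.27 ± 0.57 (SD, n = 3 each) differed by 1.02 on the log2 scale. The highest saline and the lowest microbead library were nearly equal, at -0.921 and -0.917, so the lack of overlap is slight. The two-sided exact permutation test gave p = 0.1, the smallest that 3 against 3 libraries allow, and 0.15 after adjustment over the 3 receptor ratios compared. The difference was 0.78 without saline replicate 1 and 1.20 without saline replicate 3, and at most 1.34 in the fits that left out 1 library.

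*Gdnf*, the ligand of GFRα1, is at chr15:7810846-7837575 on the forward strand. Its counts were 12, 14 and 4 in saline and 14, 6 and 6 in microbead libraries, which is 0.319, 0.290 and 0.114 CPM against 0.721, 0.433 and 0.390 CPM. Each microbead library was higher than each saline library, on counts of 14 or fewer. With a log2 fold change of 1.08 (SE 0.63, 95% interval -0.33 to 2.5), it did not pass the test (edgeR adjusted p = 0.272). The gene passed the filter on low counts by a small margin and through its microbead libraries alone. The lack of overlap was therefore set by the filter and is no result about *Gdnf*. The gene dropped out when any saline library was left out.

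*Gfra1*, the GDNF-binding receptor subunit, is at chr19:58235604-58455909 on the reverse strand. It was measured at 32.48, 56.68 and 67.5 CPM in saline and at 27.23, 29.89 and 28.06 CPM in microbead libraries. The saline libraries differed widely, while the microbead libraries lay close together below all of them. The means were 52.2 ± 17.9 and 28.4 ± 1.36 CPM (SD, n = 3 each). The log2 fold change of -0.88 (SE 0.26, 95% interval -1.45 to -0.31) was nearly that of *Ngfr* but missed the threshold (edgeR adjusted p = 0.0508). It passed in 3 of the 10 alternatives with 6 libraries. These were no filter on low counts (0.00223), a minimum of 10 counts set for each library (0.0438) and DESeq2 (0.0159). In the other alternatives the adjusted p reached 0.121. With a library left out it passed in 1 of 6 fits, without saline replicate 1 (-1.13, adjusted p = 0.00979). In the other such fits the adjusted p reached 0.165, and without saline replicate 3 the values were -0.65 and 0.12. The library with the lowest saline value of *Gfra1*, replicate 1, was also the one with the lowest RGC marker sum. It was the lowest saline library in the amacrine, bipolar, horizontal, Müller glia, endothelial, pericyte and pigment epithelium sums as well. Among the microbead libraries the RGC sum was 1047 to 1403 CPM. The part of RGC or other cell content in the spread of *Gfra1* was not tested. The antisense gene *Gm16277* covers 7.6% of the exonic bases of *Gfra1* and is not analysed here.

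RET, the kinase that GFRα1 signals with, varied in the same way across saline libraries. *Ret* was at 47.52, 83.62 and 101.1 CPM in saline and at 49.05, 51.41 and 53.72 CPM in microbead libraries, with overlap through saline replicate 1 (log2 fold change -0.59, edgeR adjusted p = 0.148). With a library left out, *Ret* passed in 1 of 6 fits, without saline replicate 1 (-0.85, adjusted p = 0.0201), and its adjusted p reached 0.373 in the others. As *Gfra1* and *Ret* moved together, their ratio was steady within a group. The log2 ratio of *Gfra1* to *Ret* was -0.55, -0.56 and -0.58 in saline and -0.85, -0.78 and -0.94 in microbead libraries. These means of -0.56 ± 0.018 and -0.86 ± 0.078 (SD, n = 3 each) differed by 0.29 on the log2 scale, lower after microbead injection, without overlap (two-sided exact permutation test, p = 0.1, adjusted over 3 ratios 0.15). Leaving out any 1 library, saline replicate 1 included, moved the difference only between -0.33 and -0.25.

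**Figure D3:**
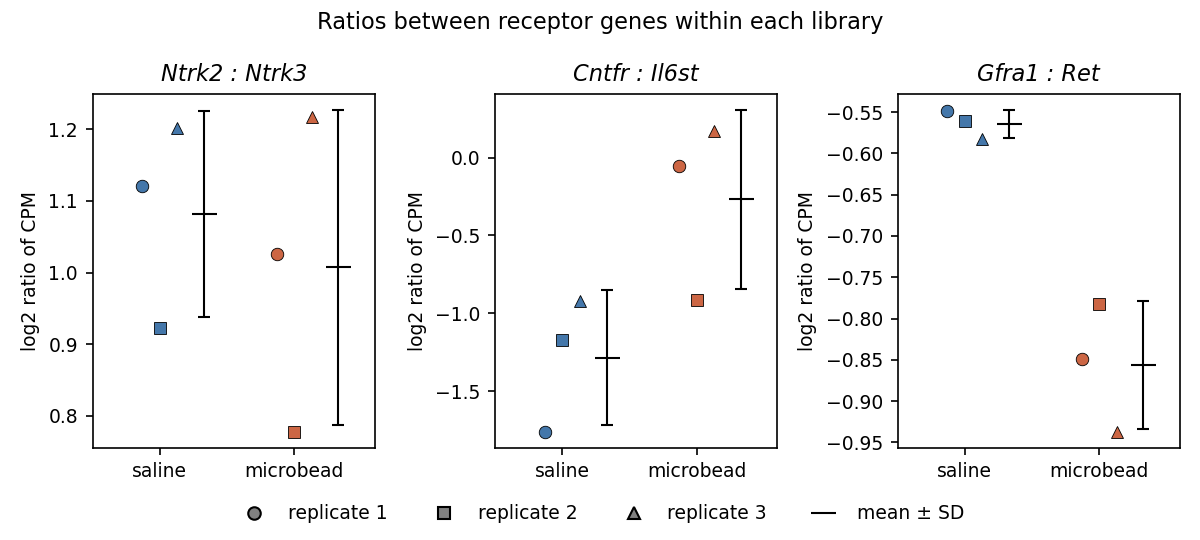
Log2 ratio of CPM (vertical axis, a scale of its own in each panel) between pairs of receptor genes within each library, with symbols for replicates and bars for the mean ± SD. The saline libraries lie between -0.58 and -0.55 for *Gfra1* to *Ret* and the microbead libraries between -0.94 and -0.78, while *Ntrk2* to *Ntrk3* overlaps and *Cntfr* to *Il6st* is apart by a small gap.

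Genes whose profile was most like that of *Ngfr* or *Gfra1*, the members with the smallest p, were sought among 11842 tested genes with a mean of at least 5 CPM, by the Pearson correlation of log2 CPM over the 6 libraries. For *Ngfr* these were *Eftud2* (r = 0.997), *Gorasp1* (0.995) and *Mfsd12* (0.993), and 138 genes reached 0.95. For *Gfra1* they were *Fam65b* (0.995), *Slc2a13* (0.994) and *Gnai1* (0.994), and 166 genes reached 0.95. With 6 libraries in 2 groups, and depth and library series shared by all genes, these are descriptions of likeness alone. *Slc2a13*, which encodes an inositol transporter, ran from 29.7, 55.2 and 69.9 CPM in saline to 21.9, 24.4 and 20.6 CPM in microbead libraries, the order of *Gfra1* among the saline libraries.

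Other genes of these pathways were examined in 7 lists of ligands, processing enzymes, receptor partners, kinases and induced genes. Of 160 listed genes, 155 are in the table and 151 were tested. Past the threshold, 2 rose and 18 fell with microbead injection, which is 1.32% and 11.9% of those tested, against 6.46% higher and 6.31% lower among all tested genes. In the single lists between 9.09% and 18.8% of the tested genes passed in either direction, against 12.8% of all tested genes. The median log2 fold change was -0.36, and 116 of the 151 were negative, while the median over all tested genes was -0.03, with 9221 of 17707 negative. Without saline replicate 1 the number past the threshold was 31, and without saline replicate 3 it was 7. Of the 20 genes, 6 passed without the latter library: *Nrtn*, *Pdpk1*, *Ptpn11*, *Igf1r*, *Bex1* and *Dusp4*.

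Among 11 tested neurotrophins and processing genes, 1 was lower and 0 were higher (median log2 fold change -0.41). The lower one was *Plat*, tissue plasminogen activator, which starts the cascade that cleaves proBDNF. It was at 26.4, 16.4 and 22.17 CPM in saline and at 10.45, 13.94 and 10.13 CPM in microbead libraries (log2 fold change -0.91, edgeR adjusted p = 0.0399, past the threshold in 0 of 6 fits with a library left out, and in 7 of the 10 other alternatives). *Ntf5*, which encodes neurotrophin-4, had 2 to 4 counts in every library and was not tested. Sortilin (*Sort1*), the co-receptor of p75NTR for precursor neurotrophins, had a log2 fold change of -0.57 (adjusted p = 0.121). With a library left out, *Sort1* passed in 1 of 6 fits, without saline replicate 1 (0.0492), and its adjusted p reached 0.3 in the others. Its relative *Sorcs2* had a log2 fold change of -0.85 (adjusted p = 0.0654), at 66.11, 94.84 and 123.3 CPM in saline and 38.39, 54.23 and 65.42 CPM in microbead libraries. *Sorcs2* thus had no overlap but did not pass. With a library left out it passed in 1 of 6 fits, without saline replicate 1 (-1.05, adjusted p = 0.0225), and its adjusted p reached 0.165 in the others. *Pcsk1*, a convertase that cleaves precursor proteins in secretory granules, was at 3.798, 10.37 and 16.78 CPM in saline and at 2.779, 4.26 and 4.742 CPM in microbead libraries. Its log2 fold change of -1.40 (adjusted p = 0.0848) did not pass, and was -1.80 (adjusted p = 0.0124) without saline replicate 1. That was the 1 fit of 6 with a library left out in which *Pcsk1* passed, and its adjusted p reached 0.234 in the others. *Bace1*, the beta-secretase, had a log2 fold change of -0.41 (adjusted p = 0.133).

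Of 8 tested receptor partners, 1 was higher and 0 were lower (median -0.13). *Bex1*, whose product binds the intracellular part of p75NTR, was at 28.16, 30.53 and 34.58 CPM in saline and at 72.88, 46.29 and 46.58 CPM in microbead libraries, with a log2 fold change of 0.83 (edgeR adjusted p = 0.0383). It kept its direction in every alternative but passed in 1 of the 6 fits that left out a library, without saline replicate 3, and came to 0.76 (adjusted p = 0.0634) without saline replicate 1. It did not pass with the GC and length offset (0.0664), with the replicate number as a block (0.0789) or with both (0.135). The scaffold gene *Kidins220*, whose product binds Trk receptors, was at 236.2 to 379.5 and 210.2 to 297.0 CPM (-0.27, adjusted p = 0.442), and *Maged1*, which encodes a p75NTR-binding protein, at 324.3 to 566.5 and 362.6 to 410.8 CPM (-0.17, adjusted p = 0.63).

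In the CNTF and gp130 cytokine family, 3 of 16 tested genes were lower and 0 higher (median -0.64). Besides *Il6st* these were *Ptpn11*, the phosphatase SHP2 that docks on gp130 and on Trk adaptors, and *Socs3*, the feedback inhibitor of gp130. *Ptpn11* was at 164.3, 182.0 and 202.5 CPM in saline and 78.02, 110.3 and 92.31 CPM in microbead libraries (log2 fold change -0.97, edgeR adjusted p = 0.0168), and passed in 4 of the 6 fits that left out a library. The fall of *Socs3* rested on saline replicate 3: levels were 28.26, 6.699 and 228.1 CPM in saline and 5.522 to 8.16 CPM in microbead libraries, and the log2 fold change of -3.69 (adjusted p = 0.0464) became -1.36 (0.101) without that library. *Lifr* did not pass (-0.59, adjusted p = 0.119), nor did the kinase gene *Jak1* (-0.43, adjusted p = 0.177) or the cytokine *Lif* (-0.72, adjusted p = 0.345). With a library left out, *Lifr* passed in 1 of 6 fits, without saline replicate 3 (-0.81, adjusted p = 0.0294), and its adjusted p reached 0.303 in the others.

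In the GDNF family, 1 of 10 tested genes was lower and 0 were higher (median -0.32). *Nrtn*, neurturin, a ligand that prefers GFRα2, was at 10.33, 5.952 and 9.273 CPM in saline and at 2.728, 1.444 and 1.819 CPM in microbead libraries. That is a 4.22-fold lower level (log2 fold change -2.08, SE 0.36, edgeR adjusted p = 0.0145). It passed in 5 of the 6 fits with a library left out, but with an offset for GC content and exonic length it came to -0.43 (adjusted p = 0.525). *Gfra4* had a log2 fold change of 0.48 (adjusted p = 0.15), without overlap, and 0.93 (adjusted p = 0.0262) with the same offset. *Ncam1* and *Sdc3*, cell surface proteins that can serve as receptors of GDNF, had log2 fold changes of -0.12 and 0.09 (adjusted p = 0.692 and 0.798), with signs that were not stable across the alternatives.

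Downstream, 6 of 39 adaptors and kinases were lower and 1 was higher (median -0.18). The lower ones were *Pdpk1* (-1.02, adjusted p = 0.0156), *Map2k1* (-0.84), *Rps6ka2* (-0.76), *Gsk3b* (-0.74), *Crk* (-0.69) and *Grb2* (-0.57), which encode kinases and adaptors of the PI3K and MAPK branches. The higher one was *Mapk7* (0.84, adjusted p = 0.0494), the ERK5 kinase. With a library left out, *Pdpk1* passed in 4 of 6 fits and *Grb2* in 0, while *Map2k1*, *Rps6ka2*, *Gsk3b*, *Crk* and *Mapk7* passed in 1 each, the fit without saline replicate 1. Without saline replicate 3 the values were -0.67 (adjusted p = 0.0513) for *Map2k1*, -0.69 (0.0573) for *Gsk3b* and 0.67 (0.109) for *Mapk7*. Of 24 genes induced by this signalling or feeding back on it, 3 were lower and 0 higher (median -0.55). *Dusp4*, a MAPK phosphatase, was at 35.43, 55.06 and 73.32 CPM in saline and 13.38, 25.63 and 24.1 CPM in microbead libraries (-1.38, adjusted p = 0.026), and *Spred1*, an inhibitor of Ras signalling, fell by 0.76 on the log2 scale (adjusted p = 0.0268). Each passed in 2 of the 6 fits with a library left out, and without saline replicate 3 the adjusted p was 0.0466 for *Dusp4* and 0.0532 for *Spred1*. *Junb*, like *Fos*, was set by saline replicate 3, with 401.1 CPM there and 35.65 and 16.86 CPM in the other saline libraries (-3.51, adjusted p = 0.0498, and -0.99 with 0.0972 without it). *Scg2*, secretogranin II, was at 385.2 to 618.8 CPM in saline and 428.5 to 699.0 CPM in microbead libraries (0.13, adjusted p = 0.752).

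**Figure D4:**
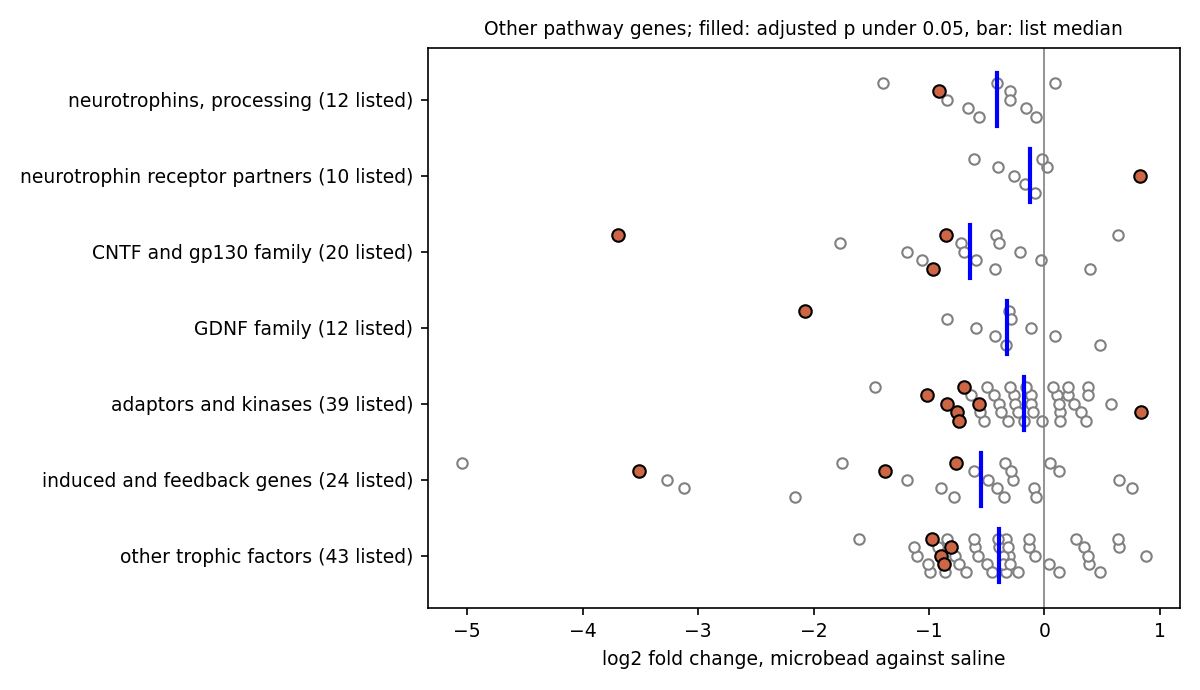
Log2 fold change (microbead against saline, horizontal axis) of the tested genes in the 7 pathway lists, with filled points for an adjusted p under 0.05 from edgeR and a blue bar for the median of each list. Of the filled points, 18 lie below and 2 above 0, the outlying ones at -3.69 and -3.51 are *Socs3* and *Junb*, both set by saline replicate 3, and the medians run from -0.64 (CNTF and gp130 family) to -0.13 (neurotrophin receptor partners).

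Among 43 tested genes of other trophic factors and receptors, 4 were lower and 0 higher (median -0.39). *Igf1r*, the receptor of insulin-like growth factor 1, was at 262.7, 254.6 and 221.5 CPM in saline and 100.8, 168.9 and 128.3 CPM in microbead libraries (log2 fold change -0.89, edgeR adjusted p = 0.0289). The others were *Psap* (-0.81, adjusted p = 0.0341), the precursor of the saposins and of the secreted trophic protein prosaposin, and *Pdgfb* (-0.97) with its receptor *Pdgfrb* (-0.87, adjusted p = 0.0377), the pair by which endothelial cells recruit pericytes. With a library left out, *Igf1r* passed in 3 of 6 fits, *Pdgfrb* in 2, *Psap* in 1 and *Pdgfb* in 0, and without saline replicate 3 *Psap* came to -0.61 (adjusted p = 0.0717). The 8 endothelial marker genes summed to 460.9 to 663.4 CPM in saline and 283.8 to 431.6 CPM in microbead libraries (exact permutation test, p = 0.1; adjusted over 14 lists 0.56). Of these 8 genes, 4 were lower and 0 higher past the threshold, against 6.31% lower and 6.46% higher among all tested genes. *Pdgfrb* is itself 1 of the 5 pericyte markers, which summed to 122.6 to 196.0 and 99.26 to 160.2 CPM. The part of these cells in the changes of *Pdgfb* and *Pdgfrb* was not tested.

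**Figure D5:**
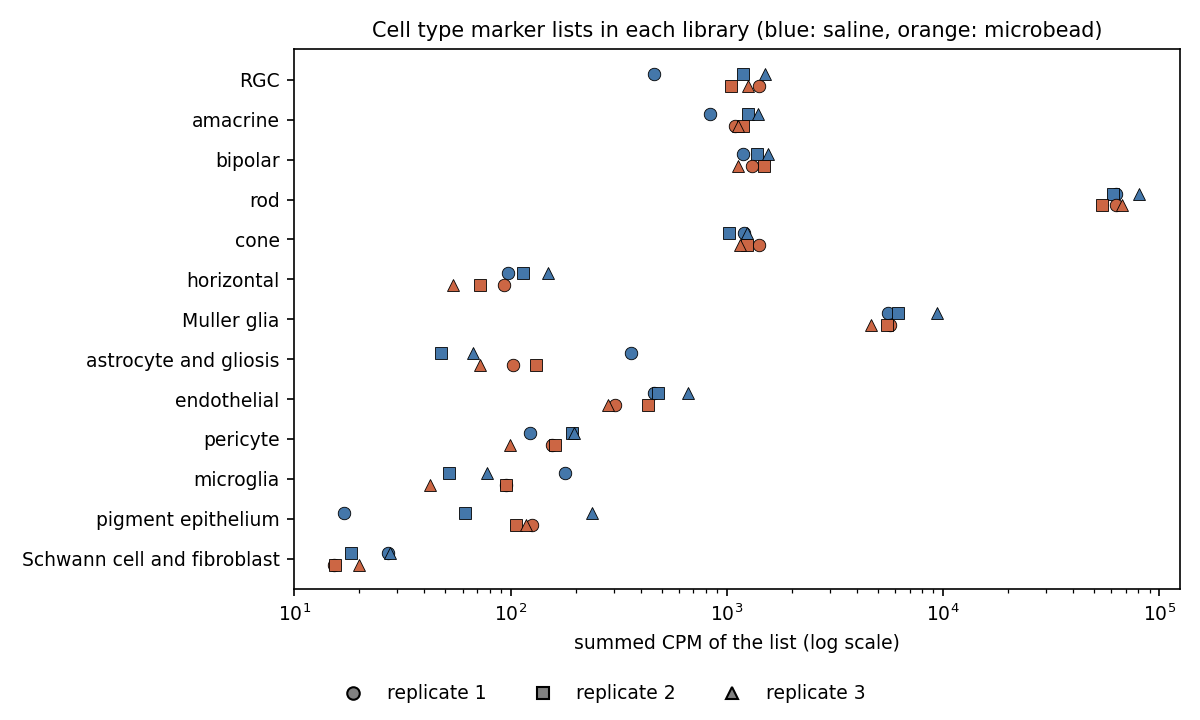
Summed CPM (horizontal axis, log scale) of the cell type marker lists other than lens in each saline (blue) and microbead (orange) library, with symbols for replicates. Saline replicate 1 lies apart, at 459.5 CPM for the RGC list and 361.0 CPM for the astrocyte and gliosis list, and the endothelial and horizontal cell lists have no overlap between the groups.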

How the data were processed

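The 3 saline and 3 microbead libraries of whole-retina poly(A) RNA were grouped by the sample labels. The authors aligned reads with STAR 2.5.3a to GRCm38.p5, counted them on genes with featureCounts 1.15.2, and deposited the raw count of each gene in each library. Treatment of reads that map to several places and the strand setting are not given in the sources used here. The deposited table also holds the authors' DESeq2 1.14 comparison (mean normalized signal, log2 fold change, linear fold change, p-value, adjusted p-value and a mark of calls), which was not used.

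Low genes were removed with edgeR's filterByExpr (count of 10, total of 15), libraries were scaled by TMM, and groups were compared in R 4.3.3 with edgeR 4.0.16 (quasi-likelihood, two-sided), with Benjamini-Hochberg adjustment over the 17707 tested genes and a threshold of 0.05. *Ntf3* and *Cntf*, removed by the filter, were read from the same fit without it. CPM are per 1000000 of the scaled library size. Ratios and marker sums were compared with two-sided exact permutation tests, which cannot go below 0.1. Steps were tested on simulated data. Limits of 3 counts and Poisson intervals cover counting error only. No library was left out, and no pair of libraries of the same group agreed within sampling noise.

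The members and lists were chosen with earlier results of these data known. Named were the members, from each pathway list the 3 genes with the smallest p and the 2 with the highest CPM, and *Il6st*, *Lifr*, *Ret*, *Ntf5*, *Clcf1*, *Nrtn* and *Lif*. Some genes that this rule takes are not reported here. *Zfp91* and the antisense genes were named for their overlap with members, and *Rps6ka2*, *Crk*, *Grb2*, *Mapk7*, *Pdgfb* and 4 Müller glia markers after their values were seen. *Clcf1* is not analysed here. The alternatives took RLE or upper-quartile scaling, left mitochondrial genes out of the library sizes, dropped the filter or raised it to 10 counts per library, used DESeq2 1.42.0 or limma-voom (limma 3.58.1), took a GC and length offset (5 spline degrees of freedom), a block for the replicate number, or both, set the threshold to 0.01, or left out each library. Gene positions and transcript sequences came from GENCODE vM21, a later annotation of the same build.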

Additional observations from a re-analysis of the deposited data

How the results depend on the processing

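The number of all genes past the threshold (2261) was 3720 without the filter on low counts, 3582 with DESeq2, 87 at an adjusted p under 0.01, and between 46 (without microbead replicate 3) and 2621 (without saline replicate 1) with single libraries left out. It was 293 without saline replicate 2, 1480 without saline replicate 3, 748 without microbead replicate 1 and 768 without microbead replicate 2. Of the 9 members, 2 passed without the filter, with at least 10 counts in every library and with DESeq2, 0 at 0.01, and 0 to 2 with a library left out (2 without saline replicate 1, 0 without any other). Of the other pathway genes, 42 passed without the filter, 32 with DESeq2, 0 at 0.01, and between 0 (without microbead replicate 3) and 31 (without saline replicate 1) with a library left out, being 4 to 7 without each of the others. The cause of these shifts was not tested.

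No pairing by replicate number was visible: the deviations of libraries with the same number correlated at -0.035, 0.136 and 0.01. Libraries with different numbers correlated at -0.196 to 0.143. With so few libraries these values cannot exclude a pairing. With the replicate number as a block, 905 genes, 1 member (*Ngfr*, log2 fold change -0.94, adjusted p = 0.0477 from edgeR) and 5 other pathway genes passed, and with the block and the GC and length offset 1106 genes, 1 member and 4 other pathway genes.

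With the GC and length offset, without and with the block, the log2 fold change was 0.048 and 0.05 for *Ntrk2*, 0.113 and 0.115 for *Ntrk3*, 0.023 and 0.027 for *Ncam1*, and -0.077 and -0.041 for *Scg2*. With single libraries left out, the range was -0.193 to 0.057 for *Ntrk3*, -0.089 to 0.287 for *Cntfr*, -0.346 to 0.066 for *Maged1*, -0.222 to 0.025 for *Ncam1*, -0.1 to 0.263 for *Sdc3*, -0.096 to 0.315 for *Scg2*, and -0.1797 to 0.04009 for the log2 ratio of *Ntrk2* to *Ntrk3*. The difference in summed marker CPM (microbead less saline) then ran from -113.6 to 410.8 for RGCs, -187.3 to 88.96 for amacrine cells, -155.7 to 24.91 for bipolar cells, -112.4 to 44.25 for astrocytes and gliosis, -51.17 to 12.63 for microglia, and -33.7 to 76.88 for pigment epithelium. The direction of *Ngfr*, *Gfra1* and *Bdnf* was the same in all alternatives run. Depth limits *Ntf3*, *Cntf* and *Gdnf*, each with at most 48 counts in a library, and 3 libraries a group limit the other members.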

Other observations

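Saline replicate 1 also differed from the rest in some genes that retina is known to induce after injury, all named after their values were seen. Not all genes of the astrocyte and gliosis list did so. *Gfap* was at 49.88 CPM there, within the 42.87 to 55.53 CPM of the microbead libraries, and *S100b* and *Pax2* were lowest there of all libraries. In that library, *Lcn2* was at 62.92 CPM, while it was at 3.484 and 6.79 CPM in saline replicates 2 and 3 and at 5.912 to 30.76 CPM in microbead libraries. *Serpina3n*, a marker of reactive astrocytes, was at 239.9 CPM there, at 8.482 and 10.44 CPM in replicates 2 and 3, and at 10.85 to 30.83 CPM in microbead libraries. Fibroblast growth factor 2 (*Fgf2*), a trophic factor that stressed retina is known to express, was at 232.0 CPM in that library, at 67.9 and 40.31 CPM in replicates 2 and 3, and at 61.84 to 105.1 CPM in microbead libraries. *Stat3*, the transcription factor downstream of gp130, was at 198.6 CPM there, at 80.63 and 71.98 CPM in replicates 2 and 3, and at 69.63 to 104.6 CPM in microbead libraries. Saline replicate 3 differed in lens transcripts: its 5 lens genes summed to 279.6 CPM, while these sums were 20.43 and 0.871 CPM in saline replicates 1 and 2 and at most 1.69 CPM in any microbead library.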
